A study of Mus musculus with 17 samples.

Results

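The metallothionein genes Mt1, Mt2 and Mt3 were followed across 17 brainstem libraries. They were taken by name, as 3 of the 78298 genes in the files, and mitochondrial genes whose symbols begin with mt- were left out. All 3 passed the filter on low values (at least 1 TPM in at least 5 libraries), as did 16153 genes in all. The libraries came from male C57BL/6 mice: 5 given vindeburnol, 6 given VB-127 and 6 untreated. Vindeburnol is a compound of the eburnamine type, related to the alkaloid vincamine, and VB-127 is labelled as a derivative of it. Each compound was given in water by oral gavage at 20 mg/kg once a day for 5 days, and tissue was taken 24 hours after treatment. The controls are labelled untreated, and no group is labelled as gavaged with water alone, so the compound and the gavage cannot be told apart in any difference from controls. According to its title, the study sought what these compounds act on.

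Metallothioneins are small cysteine-rich proteins that bind zinc and copper and buffer the free metal in the cell. Mt1 and Mt2 are made in most tissues, and their transcription is known to rise with zinc through the metal-sensing factor MTF-1, with glucocorticoid hormones, and with inflammatory and oxidative stress. Mt3 was found as a growth inhibitory factor of brain, is made mainly in the nervous system, and is known to respond little to the metals and hormones that induce Mt1 and Mt2. In brain, Mt1 and Mt2 are made chiefly by astrocytes. The genes lie side by side on chromosome 8, together with Mt4, a gene of squamous epithelium.

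The sequence before each gene's annotated start is shown so that the genes can be compared for the binding core of MTF-1, written here as TGCACNC or TGCGCNC on either strand. The stretches run 5′ to 3′ on the plus strand, from RefSeq on GRCm38.p6, and capitals mark the cores. They lie at chr8:94178839-94179088 for Mt1, chr8:94172368-94172617 for Mt2 and chr8:94152357-94152606 for Mt3, each 250 bases long and upstream of the start.
Mt1: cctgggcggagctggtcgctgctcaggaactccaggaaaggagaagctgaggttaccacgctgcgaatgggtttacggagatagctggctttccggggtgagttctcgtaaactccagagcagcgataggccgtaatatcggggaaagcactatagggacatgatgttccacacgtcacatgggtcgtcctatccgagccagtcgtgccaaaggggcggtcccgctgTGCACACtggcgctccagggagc
Mt2: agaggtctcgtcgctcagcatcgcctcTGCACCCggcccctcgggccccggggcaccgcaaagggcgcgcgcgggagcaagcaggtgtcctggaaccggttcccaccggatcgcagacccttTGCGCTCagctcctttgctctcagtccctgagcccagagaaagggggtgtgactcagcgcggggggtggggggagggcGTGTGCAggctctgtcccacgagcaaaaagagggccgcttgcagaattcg
Mt3: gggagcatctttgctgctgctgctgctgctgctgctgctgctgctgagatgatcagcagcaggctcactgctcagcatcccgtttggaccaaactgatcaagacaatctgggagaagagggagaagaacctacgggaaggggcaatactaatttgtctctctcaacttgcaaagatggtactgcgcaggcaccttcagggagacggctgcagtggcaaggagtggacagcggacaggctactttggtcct
In the 250 bases shown, Mt1 held 1 core, Mt2 held 3 and Mt3 held 0. Over the full window of 300 bases, which adds the first 50 bases of the transcript, the counts were 3 for Mt1, 4 for Mt2 and 1 for Mt3. Of 32817 RefSeq windows of this length, 25.7% held at least 1 core, 1.97% at least 3 and 0.518% at least 4. The annotated start need not be the start used in this tissue. For Mt1 in particular, cores at or after the annotated start are not in the printed stretch, and any beyond the window were not counted, so its count may be too low. These matches describe letters and not sites in use.

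All 3 genes were abundant. Over the 17 libraries Mt3 averaged 1020 ± 116 TPM (SD, n = 17), Mt1 910.4 ± 156 TPM and Mt2 597 ± 150 TPM, and TPM is a level per transcript length. Mt3 ranked between place 47 and place 85 among all genes of a library, Mt1 between 47 and 144, and Mt2 between 63 and 260. Mt4 was listed at 0 in every library. Between genes, Mt2 was lower than Mt1 in every library, with a ratio of Mt2 to Mt1 from 0.560 to 0.813. Mt1 and Mt3 lay close together, and which was higher varied: the ratio of Mt3 to Mt1 ran from 0.780 to 1.44. No run of 31 bases was shared between transcripts of any pair of these genes in GENCODE M21, which bears on whether their reads could be mixed. Mt2 overlaps the antisense gene Gm45774, which was at 0 to 0.332 TPM.

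Mt1, the major inducible metallothionein gene, was at 1263, 923, 938, 964 and 1000.0 TPM in the vindeburnol libraries. It had a lowest value of 645 TPM, a median of 782 TPM and a highest value of 886 TPM after VB-127, and 773, 966 and 1141 TPM in untreated controls. Every vindeburnol library lay above every VB-127 library, and the controls spanned the gap and overlapped both. Of the 16153 genes tested, 17 (0.105%) separated in this way with vindeburnol higher, and 46 with it lower. Vindeburnol replicate 1 was the highest of all 17 libraries and VB-127 replicate 6 the lowest.

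Mt2, which is induced along with Mt1, was at 1003, 614, 763, 621 and 597 TPM in the vindeburnol libraries. Its lowest, median and highest values were 411, 482 and 568 TPM after VB-127 and 463, 584 and 755 TPM in untreated controls. As for Mt1, the vindeburnol and VB-127 libraries did not overlap and the controls overlapped both. The 2 vindeburnol libraries that stood higher than any control were replicates 1 and 3.

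Mt3, the brain metallothionein gene, was at 1196, 1091, 922, 972 and 1326 TPM in the vindeburnol libraries. It ran from 907 TPM through a median of 998 TPM to 1091 TPM after VB-127, and from 828 TPM through 999.8 TPM to 1059 TPM in untreated controls. All 3 groups overlapped. The highest Mt3 library, vindeburnol replicate 5, was the lowest of the vindeburnol libraries for Mt2.

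**Figure D1:**
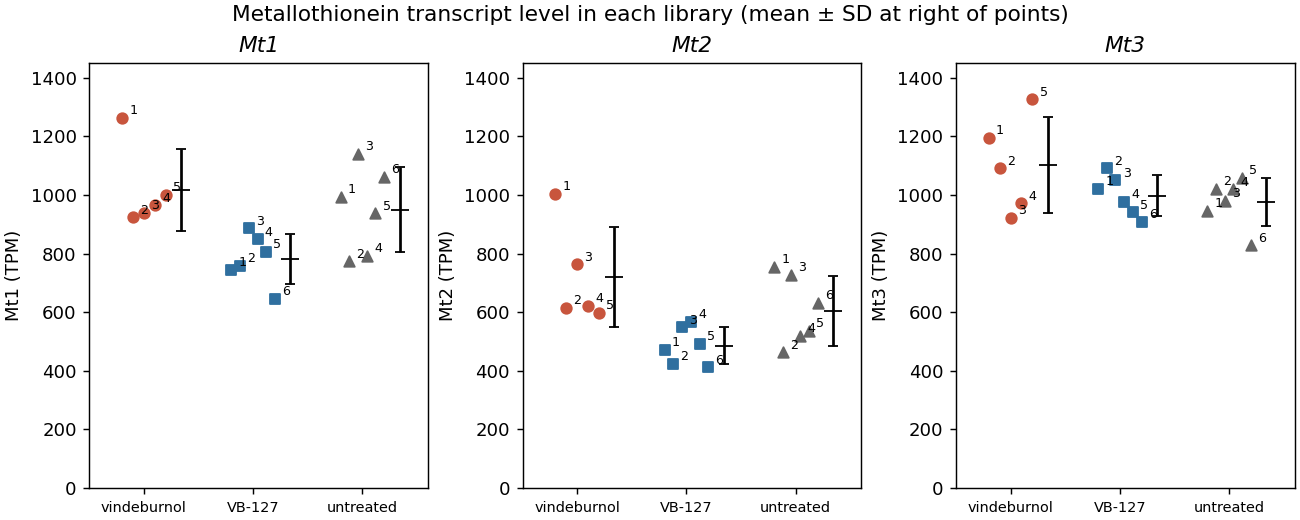
TPM of Mt1, Mt2 and Mt3 in each library (points, numbered by replicate) with the group mean ± SD (bar at the right of each group; n = 5 vindeburnol, 6 VB-127, 6 untreated). For Mt1 and Mt2 the vindeburnol points all lie above the VB-127 points, which reach 886 and 568 TPM, while the Mt3 points of the 3 groups overlap. Such separation with vindeburnol higher held for 17 of 16153 genes tested (0.105%).

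Spread within a group differed between the genes. The within-group SD on the log2(TPM + 1) scale was 0.265 for Mt2, 0.193 for Mt1 and 0.1495 for Mt3. Genes with a mean level within 2-fold of Mt2 had a median SD of 0.121, and 92.5% of those 332 genes had a lower SD than Mt2. The same share was 86.5% of 192 genes for Mt1 and 69.3% of 166 genes for Mt3.

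The make-up of the pool shifted between libraries. The ratio of Mt2 to Mt1 was 0.795 and 0.813 in vindeburnol replicates 1 and 3 and 0.597 to 0.666 in the other vindeburnol libraries, against 0.560 to 0.669 after VB-127 and 0.571 to 0.760 in controls. Mt3 relative to the sum of Mt1 and Mt2 averaged 0.644 ± 0.126 after vindeburnol (SD, n = 5), 0.794 ± 0.0923 after VB-127 (SD, n = 6) and 0.646 ± 0.145 in controls (SD, n = 6). These ratios do not depend on how TPM is scaled between libraries, and all 3 groups overlapped in both.

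**Figure D2:**
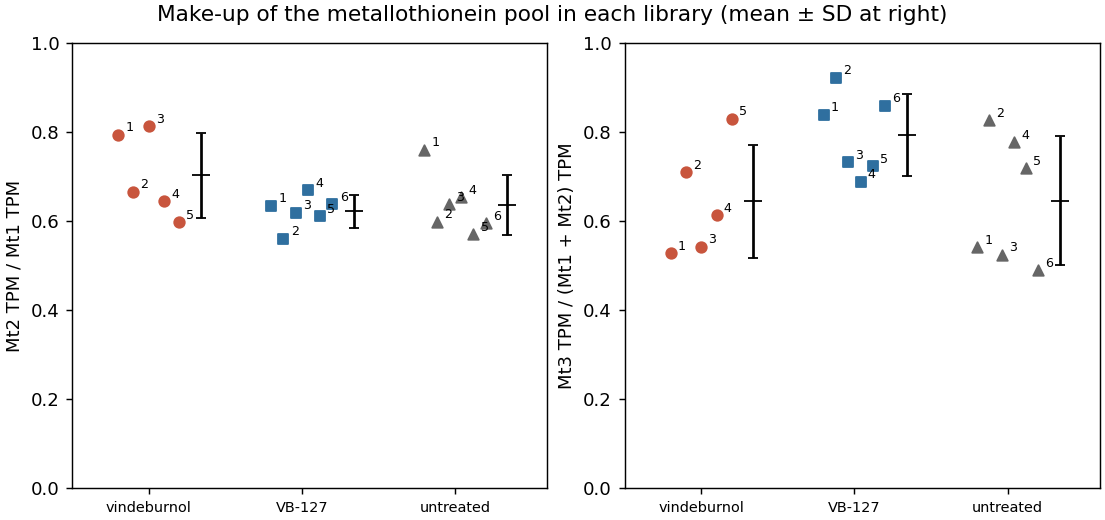
Ratio of Mt2 to Mt1 TPM (left) and of Mt3 to the summed Mt1 and Mt2 TPM (right) in each library (points, numbered by replicate), with the group mean ± SD. VB-127 has the narrowest range of the first ratio, 0.560 to 0.669, and the highest mean of the second, 0.794.

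Vindeburnol was set against untreated controls to ask whether 5 days of dosing moved these genes, and none of the 3 passed the test. Over all 16153 genes, 0 (0.0%) passed limma's adjusted threshold of 0.05, and an unadjusted p under 0.05 was found for 8.17% of them. The mean of Mt3 was 1101 ± 165 TPM for the vindeburnol libraries and 976 ± 81.9 TPM for the controls (SD, n = 5 and 6), a log2 difference of 0.17 (SE 0.0838, 95% interval -0.0082 to 0.34, limma adjusted p = 0.617). Mt2 averaged 720 ± 172 TPM against 605 ± 119 TPM, a log2 difference of 0.24 (SE 0.143, 95% interval -0.06 to 0.54, limma adjusted p = 0.657). Mt1 averaged 1018 ± 139.9 TPM against 950.0 ± 146 TPM, a log2 difference of 0.10 (SE 0.104, 95% interval -0.11 to 0.32, limma adjusted p = 0.814). Exact permutation tests gave p of 0.152 for Mt3, 0.238 for Mt2 and 0.429 for Mt1. Without vindeburnol replicate 1 the Mt1 and Mt2 differences were 0.02 and 0.12, and without replicate 5 that of Mt3 was 0.10. Without replicates 1 and 3 together, Mt1 was at 0.03 and Mt2 at 0.04. With median-ratio scaling the differences were 0.02 for Mt1, 0.16 for Mt2 and 0.08 for Mt3.

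VB-127 was set against the same controls, and again none of the 3 passed. Here limma called 1 of 16153 genes (0.00619%), the predicted gene Gm28119, named here for that reason alone. The mean of Mt1 was 781 ± 85.6 TPM for the VB-127 libraries and 950.0 ± 146 TPM for the controls (SD, n = 6 each), a log2 difference of -0.27 (SE 0.0996, 95% interval -0.48 to -0.07, limma unadjusted p = 0.0122, adjusted p = 0.470). For Mt2 the means were 486 ± 63.5 and 605 ± 119 TPM, a difference on the log2 scale of -0.30 (SE 0.136, 95% interval -0.59 to -0.02, limma unadjusted p = 0.0385, adjusted p = 0.479). For both genes 0 of 6 VB-127 libraries lay above the control mean. Mt1 and Mt2 were thus among the 0.532% of genes with a lower value at an unadjusted p under 0.05, while 9.67% of genes had a higher value at that p. That lower share depended on the scaling: 86 of 16153 genes were lower at that p as deposited, and 574 of 16136 with median-ratio scaling. Mt3 averaged 997.5 ± 69.1 TPM against 976 ± 81.9 TPM, a log2 difference of 0.03 (SE 0.0799, 95% interval -0.13 to 0.20, limma adjusted p = 0.882). Exact permutation tests gave p of 0.0368 for Mt1, 0.0606 for Mt2 and 0.649 for Mt3, where the smallest p the test can give is 0.00216. Over all genes the log2 differences had a median of 0.11 here, and median-ratio scaling brought it to 0.01, with Mt1 at -0.40, Mt2 at -0.43 and Mt3 at -0.09. Both comparisons use the same control libraries, so their values are not independent of each other.

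The compounds were then compared with each other at the same dose and time, and this difference in Mt1 and Mt2 was larger than that of either compound from controls. Mt2 averaged 720 ± 172 TPM after vindeburnol (SD, n = 5) and 486 ± 63.5 TPM after VB-127 (SD, n = 6), a log2 difference of 0.55 (SE 0.143, 95% interval 0.25 to 0.85), which is 1.46-fold with an interval of 1.19 to 1.80. Mt1 averaged 1018 ± 139.9 and 781 ± 85.6 TPM in the same groups, a log2 difference of 0.38 (SE 0.104, 95% interval 0.16 to 0.596), or 1.30-fold with an interval of 1.12 to 1.51. Neither passed over all genes: limma gave Mt2 and Mt1 unadjusted p of 0.00115 and 0.00169 and an adjusted p of 0.9999 each, and called 0 of 16153 genes (0.0%). By unadjusted p, Mt2 stood at place 15 and Mt1 at place 25 of the 16153 genes. In exact permutation tests both had p = 0.00433, the smallest the test can give with 5 and 6 libraries. Complete separation with vindeburnol higher held for 17 genes (0.105% of those tested), among them Mt1 and Mt2. The glucocorticoid-induced genes Pdk4 and Cdkn1a were also among the 17. With vindeburnol lower it held for 46 genes. The p of 0.00433 is also the chance that random labels separate a gene completely in either direction. Such genes therefore arise by chance among 16153, and separation alone does not set Mt1 and Mt2 apart from them. Mt1 and Mt2 varied together across libraries, so these are not independent observations. In bulk tissue, fewer cells of a type and less RNA per cell cannot be told apart in any of these values. Without vindeburnol replicate 1 the log2 differences were 0.42 for Mt2 and 0.30 for Mt1, and without replicates 1 and 3 together 0.34 and 0.31. Markers of other cells also differed in value between the compounds. Of 8 oligodendrocyte markers 7 were lower after vindeburnol than after VB-127 (median log2 difference -0.17), and of 6 dopaminergic markers 6 were lower (median -0.53), beside -0.03 for all genes. The lean was not particular to these lists. Lower values were also found for 5 of 5 ependyma (median -0.29), 3 of 3 noradrenergic (-0.47), 6 of 8 endothelium (-0.20) and 10 of 13 astrocyte markers (-0.09). The same held for 4 of 5 choroid plexus, 5 of 8 neuron and 4 of 6 serotonergic markers. Microglia markers split 4 and 4, and 4 of 7 meningeal fibroblast and 3 of 5 erythrocyte markers were higher. The mean level of the oligodendrocyte list ran from 8.48 to 8.75 after vindeburnol, 8.62 to 8.93 after VB-127 and 8.18 to 8.71 in controls, and that of the dopaminergic list from 3.02 to 4.29, 3.43 to 4.69 and 2.61 to 4.50, as log2(TPM + 1). For VB-127 against controls, 7 of the 8 oligodendrocyte markers were higher, with a median of 0.24 beside 0.11 for all genes. At a limma unadjusted p under 0.05, 4 of them were higher, where 9.67% of all genes were higher at that p. Other lists leaned higher too: 5 of 5 erythrocyte (median 0.40), 4 of 5 choroid plexus (0.19) and 4 of 6 dopaminergic markers (0.22). So did 10 of 13 astrocyte, 6 of 8 endothelium and 6 of 8 neuron markers. Among meningeal fibroblast markers 6 of 7 were higher, and 3 of 5 among ependyma markers. Lower values were found for 5 of 8 microglia, 2 of 3 noradrenergic and 5 of 6 serotonergic markers. None of these markers was called, and their part in the Mt1 and Mt2 differences was not tested.

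Mt3 gave no separation between the compounds. It averaged 1101 ± 165 TPM after vindeburnol and 997.5 ± 69.1 TPM after VB-127, which differ on the log2 scale by 0.13 (SE 0.0838, 95% interval -0.04 to 0.31, limma adjusted p = 0.9999, exact permutation p = 0.212). Its value was 0.06 without vindeburnol replicate 5 and 0.19 without replicate 3. Whether Mt1 and Mt2 differed from Mt3 in their response was not tested.

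**Figure D3:**
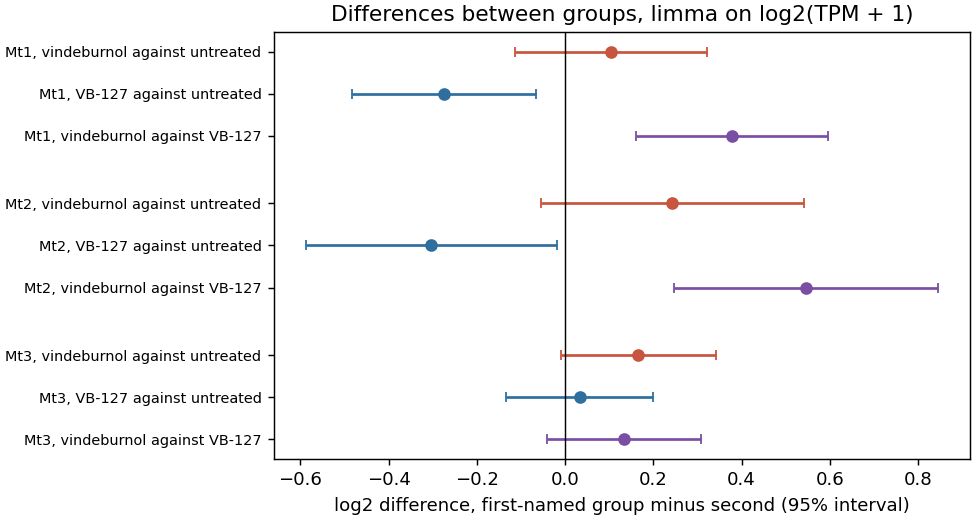
Log2 difference of each gene in the 3 comparisons, first-named group minus second (points), with 95% intervals from limma on log2(TPM + 1). The intervals of Mt1 and Mt2 lie above 0 for vindeburnol against VB-127 and below 0 for VB-127 against untreated, none of the 9 passed after adjustment over all genes, and every Mt3 interval spans 0.

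Mt1 and Mt2 varied together from library to library, and no such relation passed the test for Mt3. Over the 17 libraries Mt1 and Mt2 had a Pearson r of 0.91 and a Spearman rho of 0.90 on log2(TPM + 1) values, each with a permutation p of 1e-05, the smallest the permutations can give, and an adjusted p of 0.00018 over 18 relations. The r was 0.84 over deviations from group means, 0.84 without the 2 libraries farthest from the Mt1 median, and 0.87 to 0.93 with any library left out. Mt3 had an r of 0.22 and a rho of 0.08 with Mt1 (permutation p = 0.403 and 0.758, adjusted p = 0.725 and 0.910), and the r was -0.15 without the 2 farthest libraries. With Mt2 its r was 0.12 and its rho -0.06 (permutation p = 0.642 and 0.831, adjusted p = 0.825 and 0.935), and the r was -0.30 without the 2 farthest libraries. Median-ratio scaling brought the r of Mt3 to 0.45 with Mt1 and 0.33 with Mt2 (permutation test, adjusted p = 0.183 and 0.303).

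**Figure D4:**
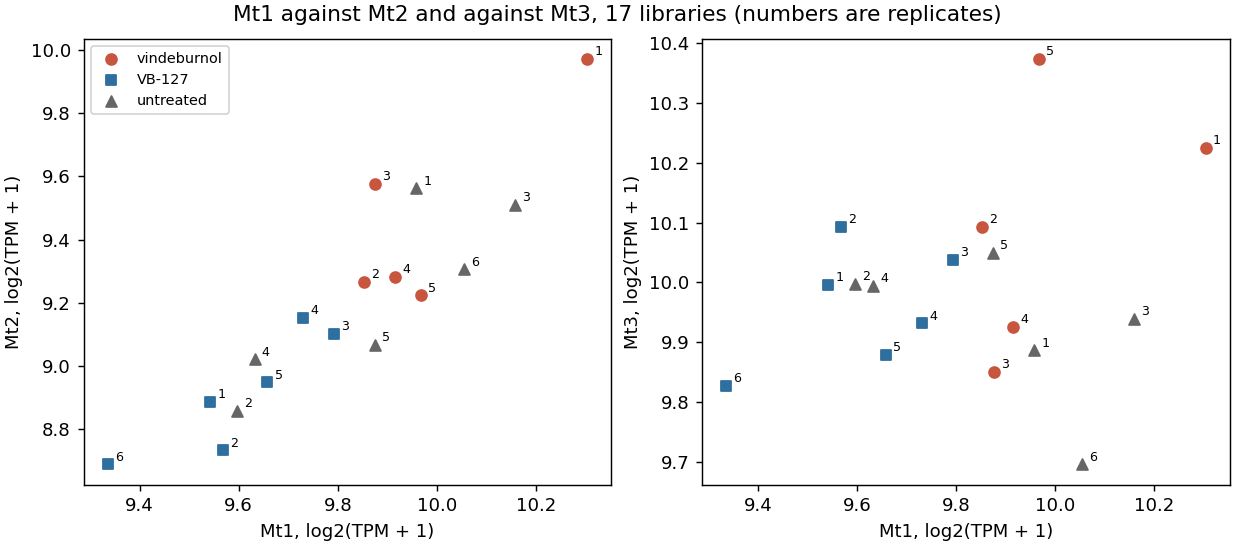
Mt2 against Mt1 (left) and Mt3 against Mt1 (right) in 17 libraries, as log2(TPM + 1), coloured by group and numbered by replicate. The left points rise together (r = 0.91), with VB-127 at the lower left and vindeburnol replicate 1 at the upper right, and the right points do not (r = 0.22).

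The genes whose levels followed Mt1 and Mt2 most closely were named from 10320 genes with a mean of at least 5 TPM. After Mt2 itself, the genes most like Mt1 were the sulfotransferase gene Sult1a1 (r = 0.88), the lipid droplet gene Plin4 (r = 0.83), the triglyceride lipase gene Pnpla2 (r = 0.76) and the mitochondrial carrier gene Slc25a34 (r = 0.76). For Mt2 they were, after Mt1, the cell cycle inhibitor gene Cdkn1a (r = 0.89), Plin4 (r = 0.87), the mitochondrial uncoupling protein gene Ucp2 (r = 0.84) and Slc25a34 (r = 0.83). Cdkn1a was at 73.2, 14.4, 60.9, 17.3 and 13.7 TPM in the vindeburnol libraries, from 6.65 to 11.9 TPM after VB-127 and from 8.77 to 28.2 TPM in controls. Replicates 1 and 3 of vindeburnol stood far above the rest for Cdkn1a, and they were also the highest vindeburnol libraries for Mt2. Plin4 was at 23.3, 10.5, 10.6, 13.1 and 3.65 TPM after vindeburnol, from 2.30 to 8.15 TPM after VB-127 and from 2.58 to 16.8 TPM in controls. Sult1a1 was highest in vindeburnol replicate 1 at 26.4 TPM, where Mt1 was highest too, and ran from 8.25 to 11.8 TPM after VB-127 and from 8.81 to 20.7 TPM in controls.

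Mt3 was followed by other genes: the growth factor gene Mdk (midkine, r = 0.87), the ubiquitin ligase subunit gene Anapc11 (r = 0.86), the Ran binding gene Ranbp1 (r = 0.82), the chromatin protein gene Hmgn2 (r = 0.79) and the polyamine synthesis gene Odc1 (r = 0.77). Of these, Mdk had an r of 0.26 with Mt1 and 0.18 with Mt2, and Anapc11 0.06 and -0.05. Mdk was at 97.4, 50.5, 47.9, 53.4 and 116.9 TPM in the vindeburnol libraries. It ran from 46.7 to 59.4 TPM after VB-127 and from 42.3 to 65.0 TPM in controls. Vindeburnol replicates 1 and 5 were thus the highest libraries for Mdk, as they were for Mt3. How far the r rests on them was not tested. In the ranking for Mt3, Mt1 came at place 1819 and Mt2 at place 2911 of 10320. These likenesses share 17 libraries and TPM totals, and they are given as a description.

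Of the 5 genes most like Mt1 and the 5 most like Mt2, the glucocorticoid-induced list holds Sult1a1, Plin4 and Cdkn1a. That list has 15 genes that glucocorticoid hormones are known to induce, without the metallothioneins, and all 15 were tested. The list was chosen with earlier results of these data known, so the p-values of its relations are not independent support. Mt2 had an r of 0.83 with the mean level of the list over the 17 libraries and a rho of 0.85 (permutation p = 3e-05 and 6e-05, adjusted p = 0.00027 and 0.00054). The r was 0.80 over deviations from group means and 0.66 without vindeburnol replicates 1 and 3. Those are the 2 libraries farthest from the median of the list. The adjusted p of that 0.66 was 0.0454 with those 2 libraries left out of every relation. It was 0.0473 where each relation instead lost its own 2 farthest libraries. Mt1 had an r of 0.67 and a rho of 0.75 (permutation p = 0.00306 and 0.00091, adjusted p = 0.0184 and 0.00546). Its r was 0.61 over deviations and 0.63 without vindeburnol replicates 1 and 3. The adjusted p of that 0.63 was 0.0454 in the first of these adjustments, which passed, and 0.0583 in the second, which did not. Without vindeburnol replicate 1 alone, the Mt1 value was 0.52 (adjusted p = 0.108). Mt3 had an r of -0.0057 and a rho of -0.12 with the list (permutation p = 0.982 and 0.656, adjusted p = 0.982 and 0.844), and -0.28 without the 2 libraries.

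**Figure D5:**
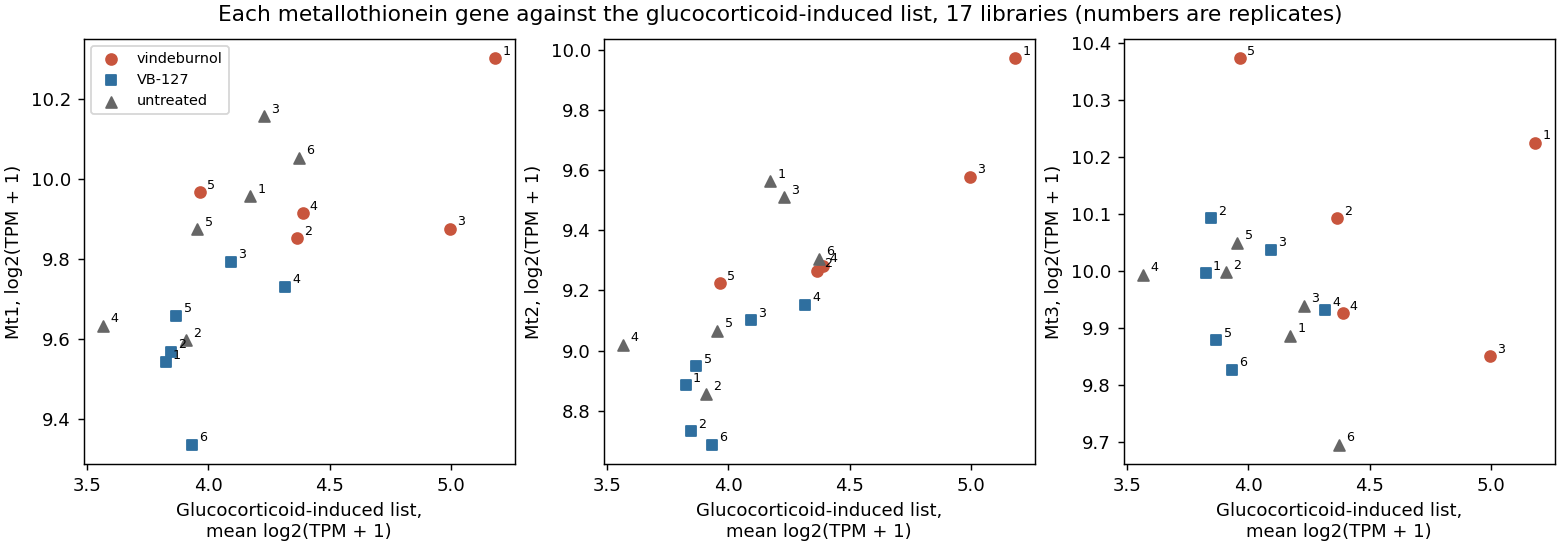
Mt1, Mt2 and Mt3 as log2(TPM + 1) against the mean log2(TPM + 1) of 15 glucocorticoid-induced genes, in 17 libraries coloured by group and numbered by replicate. Mt2 climbs with the list (r = 0.83) up to vindeburnol replicates 1 and 3 at the right, Mt1 less closely (r = 0.67), and Mt3 shows no slope (r = -0.0057).

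By group, the mean level of the glucocorticoid-induced list was 3.97 to 5.18 after vindeburnol, 3.82 to 4.32 after VB-127 and 3.57 to 4.37 in controls, as log2(TPM + 1). Vindeburnol replicates 1 and 3 were at 5.18 and 4.995, and replicate 5, at 3.97, lay within the VB-127 range. Because the list was chosen with earlier results of these data known, the counts that follow are not independent support. They were not repeated without vindeburnol replicates 1 and 3. For vindeburnol against VB-127, 14 of the 15 genes had a higher value and 1 a lower one, 11 of them at an unadjusted p under 0.05, where 0.891% of all genes were higher at that p, and 0 passed over all genes. The median log2 difference of the list was 0.49, beside -0.03 for all genes tested. Cdkn1a, the kinase gene Sgk1, Plin4 and the arrestin-domain gene Arrdc2 had log2 differences of 1.60, 1.28, 1.20 and 0.75, each with a limma adjusted p of 0.9999. For vindeburnol against controls, 14 of the 15 had a higher value and 1 a lower one, 10 of them at an unadjusted p under 0.05, where 6.95% of all genes were higher at that p. The median there was 0.43 beside 0.08 for all genes, with 0 called. For VB-127 against controls, 8 of the 15 had a higher value and 7 a lower one, with a median of 0.04 beside 0.11 for all genes. Among the lower ones were Plin4 at -0.84, Cdkn1a at -0.78 and Sult1a1 at -0.46, with limma adjusted p of 0.523, 0.525 and 0.473. Per1, a clock gene that glucocorticoids induce, was at 0.40 (limma adjusted p = 0.470). With the level of the list as a covariate, the vindeburnol and VB-127 difference was 0.17 for Mt1 and 0.17 for Mt2 and the VB-127 and control difference was -0.26 and -0.27; whether the list accounts for any of these differences was not tested.

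Zinc handling genes showed no call in any comparison, where 0, 1 and 0 of all 16153 genes were called in the 3 comparisons. Slc30a1, the zinc exporter gene that MTF-1 induces together with Mt1, averaged 8.47 TPM after vindeburnol, 8.07 TPM after VB-127 and 8.14 TPM in controls, with log2 differences of 0.06, 0.0017 and 0.06 for vindeburnol against controls, VB-127 against controls and vindeburnol against VB-127 (limma adjusted p = 0.947, 0.997 and 0.9999). Across libraries its r with Mt2 was 0.47 and its rho 0.35 (permutation p = 0.0591 and 0.168, adjusted p = 0.177 and 0.377), and with Mt1 0.36 and 0.26 (permutation p = 0.160 and 0.313, adjusted p = 0.320 and 0.627); without the 2 libraries farthest from the Slc30a1 median the r was 0.53 and 0.42. Mtf1, which encodes the zinc sensor itself, was at 9.53, 8.98 and 7.84 TPM in the same order of groups, with a log2 difference of 0.25 for vindeburnol against controls (limma adjusted p = 0.676). Of the 10 zinc exporter genes 8 were tested. For VB-127 against controls 6 had a higher and 2 a lower value, with a median log2 difference of 0.15 beside 0.11 for all genes. Slc30a10, Slc30a5 and Slc30a6 were at 0.42, 0.31 and 0.29 and Slc30a7 at -0.36, with limma adjusted p of 0.461 to 0.479. These were the exporter genes at a limma unadjusted p under 0.05, 3 higher and 1 lower. At that p 9.67% of all genes were higher and 0.532% lower. For vindeburnol against VB-127, where Mt1 and Mt2 stood furthest apart, 1 exporter gene had a higher and 7 a lower value, with a median of -0.06 beside -0.03 for all genes and 0 at an unadjusted p under 0.05, where 2.49% of all genes were lower at that p. The list of transcription factors that act on metallothionein genes, Mtf1 among them, had 8 of 9 genes tested and 0 called, with medians of 0.07, 0.15 and -0.04 in the 3 comparisons.

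The 13 tested zinc importer genes of 14 had median log2 differences of 0.04 for vindeburnol against controls and 0.07 for VB-127 against controls, each with 0 called. Slc39a8 was at -0.38 and the inflammation-induced importer gene Slc39a14 at 0.17 for vindeburnol against controls, and at -0.22 and 0.34 for VB-127 against controls. The 12 copper handling genes had medians of 0.04 and 0.09 in those comparisons; the copper-carrying plasma ferroxidase gene Cp was at -0.72 and -0.30 (limma adjusted p = 0.556 and 0.705). Of the 11 iron handling genes, the ferroxidase gene Heph was at 0.41 for vindeburnol against VB-127 (limma unadjusted p = 0.0302, adjusted p = 0.9999) and the transferrin gene Trf at -0.19. None of the copper or iron genes was called.

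Oxidative stress genes, which share with Mt1 and Mt2 an induction by electrophiles, also gave 0 calls, where all genes gave 0, 1 and 0 in the 3 comparisons. The 15 genes of the list had median log2 differences of 0.02, 0.02 and -0.03 in the 3 comparisons, beside 0.08, 0.11 and -0.03 for all genes. For vindeburnol against VB-127, the heme oxygenase gene Hmox1 was at 0.26 and the glutathione transferase gene Gstm1 at 0.22 (limma adjusted p = 0.9999 each), and the catalase gene Cat at -0.35. Of the 12 acute-phase and interleukin-6 response genes 8 were tested, and the mean level of those 8 had an r with Mt1 of 0.47 and with Mt2 of 0.41 (permutation p = 0.0589 and 0.104, adjusted p = 0.177 and 0.268); the rho values were 0.48 and 0.51 (permutation p = 0.0538 and 0.0371, adjusted p = 0.161 and 0.134), and the r was 0.25 and 0.37 without the 2 libraries farthest from the list's median. Without vindeburnol replicate 1 it was 0.63 for Mt1 and 0.61 for Mt2 (adjusted p = 0.0435 each), and without replicates 1 and 3 together 0.62 and 0.64 (adjusted p = 0.0454 each), so both relations passed there. With Mt3 the r was -0.61 and the rho -0.66 (permutation p = 0.0106 and 0.00488, adjusted p = 0.0476 and 0.0220). That relation with Mt3 was -0.46 without the 2 farthest libraries (adjusted p = 0.243), -0.46 without untreated replicate 6 (adjusted p = 0.263) and -0.33 with median-ratio scaling (adjusted p = 0.303). Over deviations from group means it was -0.65 (adjusted p = 0.0298). It no longer passed in 13 of 23 alternatives, among them single libraries whose loss left r close to its value, such as vindeburnol replicate 3 at -0.60 (adjusted p = 0.0594). Lcn2, an acute-phase gene and member of this list, averaged 2.85 ± 2.04 TPM after vindeburnol, 2.09 ± 2.49 TPM after VB-127 and 42.0 ± 47.3 TPM in controls (SD, n = 5, 6 and 6). Its log2 differences from controls were -2.62 and -3.04, where the medians of the list were 0.03 and -0.07. Lcn2 thus weighs heavily on the mean level of the 8 genes, and how far the relations above rest on it was not tested.

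Astrocyte content was set beside these values, since astrocytes are the main source of Mt1 and Mt2 in brain. All 13 astrocyte markers were tested and none was at 0 in any library; Aldoc, the most abundant, ran from 1218 to 1521 TPM and Gfap from 65.9 to 207 TPM. The mean level of the list was 6.28 to 6.60 after vindeburnol, 6.33 to 6.64 after VB-127 and 6.16 to 6.63 in controls, as log2(TPM + 1), so the groups overlapped throughout. Its r was -0.06 with Mt1, -0.10 with Mt2 and -0.39 with Mt3, with rho of -0.20, -0.21 and -0.40 (permutation p of r = 0.824, 0.699 and 0.125, adjusted p = 0.872, 0.839 and 0.282; of rho 0.451, 0.414 and 0.111, adjusted 0.677, 0.677 and 0.285). Without the 2 libraries farthest from the astrocyte median, the r was -0.21, -0.08 and -0.69. The Mt3 value passed there (adjusted p = 0.0338), and also without Bc1 and mitochondrial genes, at -0.62 (adjusted p = 0.0259). With astrocyte level as a covariate, the vindeburnol and VB-127 difference was 0.40 for Mt1 and 0.57 for Mt2. For vindeburnol against controls 7 of the 13 markers had a higher and 6 a lower value. The counts were 10 and 3 for VB-127 against controls, and 3 and 10 for vindeburnol against VB-127, with 0 called. The marker Gfap averaged 95.5 ± 18.4 TPM after vindeburnol, 111 ± 27.9 TPM after VB-127 and 144 ± 32.9 TPM in controls (SD, n = 5, 6 and 6). Other markers went the other way: the log2 differences of vindeburnol and VB-127 from controls were 0.37 and 0.08 for Aldh1l1 and 0.18 and 0.44 for Slc7a10.

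Of 6 noradrenergic markers of the labelled region, 3 passed the filter, and none was called. Dbh, the enzyme that makes noradrenaline, averaged 0.411 ± 0.736 TPM after vindeburnol, 0.930 ± 0.914 TPM after VB-127 and 6.08 ± 7.70 TPM in controls (SD, n = 5, 6 and 6). Its log2 differences from controls were -1.71 and -1.28 (limma unadjusted p = 0.0122 and 0.0414, adjusted p = 0.516 and 0.483). The noradrenaline transporter gene Slc6a2 averaged 0.0942, 0.310 and 2.45 TPM in the same order, and Phox2a had a median of 0 TPM over the 17 libraries. Th and Slc18a2, which dopaminergic cells share, had medians of 74.5 and 38.2 TPM, and the serotonergic gene Tph2 and the dopaminergic gene Slc6a3 74.2 and 45.5 TPM. The mean level of the noradrenergic list ran from 2.87 to 4.38 after vindeburnol, 3.70 to 4.48 after VB-127 and 3.64 to 5.30 in controls, as log2(TPM + 1). Their part in the metallothionein values was not tested. The non-coding RNA Bc1 made up between 16.1% and 35.3% of all TPM in each library, and this share had an r of -0.16 with Mt1, -0.08 with Mt2 and 0.20 with Mt3 (rho -0.03, -0.0074 and 0.21; permutation p of r = 0.545, 0.747 and 0.444, adjusted p = 0.754, 0.840 and 0.727; permutation p of rho = 0.922, 0.981 and 0.426, adjusted p = 0.976, 0.981 and 0.677). Without the 2 libraries with the most extreme Bc1 share, the r was -0.09, -0.18 and 0.41. With median-ratio scaling the r of Mt3 passed at 0.76 (adjusted p = 0.00276). Without Bc1 and mitochondrial genes it passed at 0.65 (adjusted p = 0.0218). The Bc1 share was kept as deposited there, while leaving Bc1 out of the total raises other genes most where the share is large. The median-ratio factor was likewise lowest, at 0.787, in untreated replicate 4, where the share was highest. A positive r is thus partly built in, and these values cannot decide the relation. With median-ratio scaling Mt1 and Mt2 also rose, to 0.37 and 0.30. The share averaged 21.4% ± 5.88 after vindeburnol, 21.04% ± 4.41 after VB-127 and 24.5% ± 5.90 in controls (SD, n = 5, 6 and 6). TPM was also recomputed without Bc1 and mitochondrial genes, which rescales the totals. The log2 differences of Mt1 and Mt2 were then 0.38 and 0.55 for vindeburnol against VB-127. They were -0.36 and -0.39 for VB-127 against controls, and 0.02 and 0.16 for vindeburnol against controls. The part of the Bc1 share in the differences was not tested.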

How the data were processed

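RNA was measured in 17 libraries of poly(A) RNA from mouse brainstem tissue labelled as locus coeruleus. STAR, Salmon and the build GRCm39 are named in the submitters' processing notes; the library kit was directional, and the annotation, the versions and the strand setting of the counting are not given in the sources used here. The deposited values are TPM (a share of transcripts, scaled by the authors to transcript length and to 1 common sum across libraries) for 78298 genes. TPM keeps no read depth, so depth is unknown and the precision of a value rests on the spread between libraries. A second table holding a TPM column per library was not used here.

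Tests used log2(TPM + 1), so the pseudocount was 1. Genes with at least 1 TPM in at least 5 libraries were tested, which left 16153. Group was the sole term of a linear model that limma 3.58.1 under R 4.3.3 fitted per gene over the 17 libraries, with eBayes moderation set to trend and robust. All 3 comparisons were two-sided, p-values were adjusted by Benjamini-Hochberg across the 16153 genes, and genes under an adjusted p of 0.05 were called. The fit, the permutation p of a correlation and the ranking of genes by likeness were tested on simulated data. Beside limma stood a two-sided exact permutation test of each metallothionein gene, 9 tests in all. Relations across libraries formed a family of 18, each with 100000 permutations, whose smallest possible p is 1e-05.

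Replicate numbers are shared between groups but no label ties a number to an animal, litter or day. Over the 16 same-numbered pairs, the correlation of deviations from group means ran from -0.1952 to 0.1111, so the numbers were not used as pairs. Whether libraries come from separate animals is not stated, so p-values measure the spread between these samples.

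The named genes were Mt1, Mt2 and Mt3, with Slc30a1 and Mtf1, up to 4 genes of each metal, hormone or stress list with the largest difference per comparison, and per metallothionein gene the 5 genes most like it. These genes and the lists were chosen with earlier results of these data known. Gene symbols come from the files. Promoter sequence is from RefSeq on GRCm38.p6, a build other than that of the files, and was used for its letters alone. Alternatives covered pseudocount, filter, scaling, library weights, moderation, groups in the fit, a replicate block, an astrocyte covariate and each library left out. A glucocorticoid list covariate and the loss of vindeburnol replicates 1 and 3 together were added after the data were seen.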

Additional observations from a re-analysis of the deposited data

Results flagged for a closer look

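Mt1 in vindeburnol replicate 1, at 1263 TPM, stood far above the other 4 vindeburnol libraries, which lay between 923 and 1000.0 TPM; the gap to the nearest of them was 0.774 of the range of the group. Of 18 group values examined in this way for the genes and their ratios, 1 stood out. The rule is set to pick about 1 group in 20 by chance, a nominal rate that was not measured here. The same library had the highest Mt2, at 1003 TPM, and the highest mean level of the glucocorticoid-induced list, at 5.18. Without it the vindeburnol difference of Mt1 was 0.02 from controls and 0.30 from VB-127.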

How the results depend on the processing

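For Mt1, Mt2 and Mt3 in the 3 comparisons, no alternative gave a call, and read depth, which TPM does not keep, limits what could be called by an unknown amount. For vindeburnol against VB-127 the differences ran from 0.17 to 0.42 for Mt1 and from 0.17 to 0.61 for Mt2 over 31 alternatives, both lowest with the glucocorticoid list covariate, with adjusted p from 0.425 and 0.496 upward. For VB-127 against controls they ran from -0.40 to -0.22 for Mt1 and from -0.43 to -0.23 for Mt2. The sign of Mt3 for VB-127 against controls turned in 5 alternatives: -0.0906 with median-ratio scaling, -0.0375 with quantile normalization, -0.0515 without Bc1 and mitochondrial genes, -0.0032 with library weights and, with single libraries left out, a range of -0.0129 to 0.0601. For vindeburnol against controls, Mt1 and Mt2 turned to -0.0875 and -0.0977 with the glucocorticoid list covariate; the cause was not tested.

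The count of all genes called for VB-127 against controls moved from 1 to 0 with pseudocount 0.1, no filter, the stricter filter, the replicate block and the astrocyte covariate, to 2 with only the groups compared in the fit and to 3 with library weights. It ran from 0 to 1 with single libraries left out, and was 0 without VB-127 replicate 4, 5 or 6 or untreated replicate 4 or 5. For vindeburnol against controls the count moved from 0 to 1 with pseudocount 5, without Bc1 and mitochondrial genes, with library weights and without trend or robust moderation, and to 23 with the astrocyte covariate. With the replicate block, the vindeburnol and VB-127 difference was 0.37 for Mt1 and 0.53 for Mt2. For that comparison, the share of higher values among genes at an unadjusted p under 0.05 was 26.4%, and 45.0% with median-ratio scaling; for VB-127 against controls it was 94.8% and 52.2%, and for vindeburnol against controls 85.1% and 52.0%.

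Of the 18 relations, 4 passed and between 3 and 6 did so over the alternatives. Mt1 with Mt2 and Mt2 with the glucocorticoid list passed in all of them, though the lists were chosen with earlier results of these data known. Relations that turned sign were weak. With median-ratio scaling, Mt1 and Mt2 with the Bc1 share came to 0.37 and 0.30 and Mt3 with the glucocorticoid list to 0.0547. Without Bc1 and mitochondrial genes they came to 0.21, 0.18 and 0.0035. The Bc1 share was kept as deposited in both scalings, so the turn of its relations is partly built in. Over deviations from group means, Mt3 with Mt2 was -0.14, and Mt1 and Mt2 with the astrocyte list 0.19 and 0.12. Without the 2 farthest libraries, Mt3 was at -0.15 with Mt1, -0.30 with Mt2 and 0.12 with Slc30a1. Without vindeburnol replicates 1 and 3 together, Mt3 with Mt2 was -0.0682 and Mt2 with the astrocyte list 0.0205. Leaving out single libraries, the ranges that crossed 0 were -0.15 to 0.20 for Mt3 with Mt2, -0.21 to 0.0281 for Mt2 with the Bc1 share, -0.22 to 0.0123 for Mt2 and -0.21 to 0.10 for Mt1 with the astrocyte list, -0.35 to 0.13 for Mt3 with the glucocorticoid list and -0.41 to 0.0639 for Mt3 with Slc30a1.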
